A study of Homo sapiens with 6 samples.

Results

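The factors described here were POU5F1 (Oct-4), NANOG, SOX2, SOX4, SOX9, KLF4, KLF5, LIN28B, SALL4 and MYCN. They were taken by gene symbol from the deposited expression table and make up 10 of its 58735 genes, each matched by 1 row. Expression was measured by RNA-seq in HCT116SCs, the cancer stem cells that the study obtained from the colorectal carcinoma line HCT116 by magnetic sorting for CD44 and CD326 and kept as serum-free tumour spheres. There were 3 libraries of cells transfected with negative control siRNA (NC) and 3 of cells transfected with siRNA against PSCA (siPSCA), a GPI-anchored surface protein of the Ly6 family. The titles of siPSCA 2 and siPSCA 3 name HCT117 and HCT118 stem cells, whereas their source and cell line labels name HCT116, so both were kept in the group. The genotype label was wild type for NC and PSCA knockdown for siPSCA, and cells were harvested 48 h after liposomal transfection, and which of the study's PSCA siRNAs was sequenced is not given in the sources used here. The comparison addresses whether transcripts of stemness factors differed when PSCA was targeted.

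POU5F1, SOX2 and NANOG form the core transcriptional circuit of embryonic stem cells, in which POU5F1 and SOX2 bind DNA side by side and keep each other's genes active. Forced expression of POU5F1, SOX2, KLF4 and MYC resets somatic cells to pluripotency, a process in which NANOG and the LIN28 proteins, which block maturation of the let-7 microRNAs, can also take part. In the intestine SOX9 marks stem and Paneth cells of the crypt, KLF5 is found in dividing crypt cells, KLF4 in differentiated cells nearer the lumen, and SOX4 is often raised in colorectal tumours.

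The libraries held 16099716 to 17302219 reads on genes, and 13796 genes reached a mean of 1 FPKM (fragments per gene, scaled by gene length and library total) over the 6 libraries, the minimum for testing. The library NC 3 stood apart: it differed from NC 1 and NC 2 with a chi-square of 20.6 and 16.6 per gene, against 2.35 between NC 1 and NC 2 and 2.31 to 3.78 within siPSCA. Fold changes over all tested genes rose with the GC content of the gene, with a Spearman rho across genes of 0.664, and of 0.603 without NC 3, so values after removal of the GC and length trend are given for tested genes where they end a call or move a value by much. The share that GC content has in any single result was not tested otherwise. PSCA itself was read 4, 12 and 15 times in NC 1 to 3 and 9, 9 and 7 times in siPSCA 1 to 3. The groups overlapped, and its ratio of summed reads was 0.784 (95% binomial interval 0.444 to 1.37, counting error only). A fall of the targeted transcript was thus not detected. For PSCA protein the paper reports a decrease in HCT116SCs by Western blot with each of its siRNAs. The binomial interval reaches down to 0.444, but it leaves out the spread between libraries and so sets no limit on a fall. The log2 fold change of PSCA was -0.07 (SE 0.115, limma adjusted p = 0.728 over the genes with a read). It was -0.18 without NC 1 and 0.0137 without NC 3. Exons of PSCA share 368 bases (20.9%) with JRK on the opposite strand, so these reads are uncertain. Of the sorting markers, CD44 had a mean of 82.6 ± 4.36 FPKM in NC and 60.7 ± 1.51 in siPSCA (SD, n = 3; limma adjusted p = 0.00193), and EPCAM, which encodes CD326, had 107.1 ± 14.4 and 94.97 ± 2.10 (adjusted p = 0.199). With the trend removed CD44 was at -0.29 and still passed. Both were thus present in every library. In the list of 7 epithelial markers CDX1 was at 0 and VIL1 had 3 reads in NC and 9 in siPSCA. The list summed to 631 to 662 FPKM in NC and 706 to 733 in siPSCA. Its members did not move together: KRT19 and KRT8, which carried most of the sum, rose from 310.7 to 370.1 and from 178.3 to 207.7 FPKM and CDX2 from 2.15 to 4.08, whereas CDH1 fell from 30.1 to 19.5 FPKM and KRT18 went from 128.9 to 116.4 (adjusted p = 0.165). With the GC and length trend removed KRT19 and KRT8 were at -0.27 and -0.02 on the log2 scale without passing and KRT18 passed at -0.44, while CDH1 and CDX2 kept their calls. CDX2 was then at 0.39 in place of 0.70. The fibroblast list summed to 3.49 to 5.74 and 6.17 to 6.74 FPKM, nearly all of it COL1A1, with LUM at 0. The leukocyte list stayed at or below 0.565 FPKM, with CD3E at 0, and the endothelial list at or below 0.323.

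The factors fell into a well-expressed set and a set near or at the limit of detection. SOX4, SOX9, KLF5 and KLF4 passed the minimum of 1 FPKM, and the other 6 did not. Of these 4, SOX4 was higher in siPSCA, KLF5 and SOX9 were lower and KLF4 did not pass the test. Thus 3 of the 4 tested factors changed at an adjusted p under 0.05, where 50.7% of all tested genes did so (26.6% higher and 24.2% lower), and with the GC and length trend removed all 4 did, against 39.6% (21.2% higher and 18.4% lower). The groups did not overlap for 3 of the 4 tested factors, SOX4, SOX9 and KLF5. They did not overlap for 64.5% of all tested genes (33.7% with siPSCA higher and 30.8% with siPSCA lower). Among the 6 factors under the minimum the groups did not overlap for SALL4, and the 64.5% does not cover genes at that level. By an unadjusted p under 0.05 with a log2 fold change beyond 0.5, none of the 4 tested factors passed, against 24.9% of all tested genes. The 4 tested factors had a median log2 fold change of -0.145 and all tested genes one of 0.009. As the RNA was taken from bulk cells, a change in the share of cells that express a factor and a change of its RNA per cell cannot be told apart.

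In NC the levels per length ran, from high to low, SOX4, SOX9, KLF5, KLF4, SALL4, POU5F1, SOX2 and LIN28B, with NANOG and MYCN at 0. The ranges of neighbours in this order did not overlap, except those of SOX2 and LIN28B. SOX4 lay at the 97.9 percentile of tested genes in NC, SOX9 at 95.8, KLF5 at 86.5 and KLF4 at 42.4. Among the 1553 genes of the table that carry a transcription factor family, SOX4 ranked 8 and SOX9 ranked 16, whereas SALL4 ranked 990, POU5F1 1024 and SOX2 1172. SOX4 also had the highest NC level of the 49 genes of the HMG family, which holds the SOX genes, with SOX9 in place 4 and SOX2 in place 37. In siPSCA the order of the means was the same, and there the ranges of POU5F1 and SOX2 overlapped, as did those of LIN28B and NANOG.

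**Figure D1:**
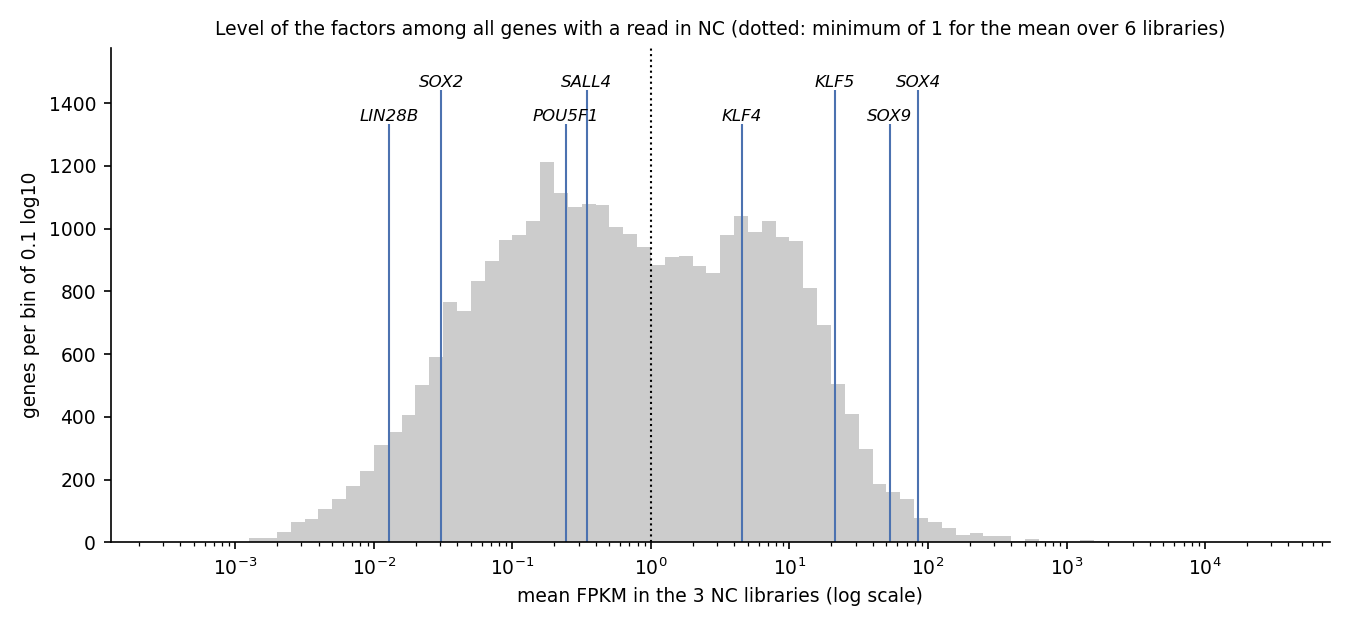
Histogram of the mean FPKM of all 31650 genes with a read in NC (x axis, log scale; y axis, genes per bin of 0.1 log10), with a line at the NC mean of each factor above 0. SOX4, SOX9 and KLF5 stand in the upper tail. KLF4, at rank 7954 of these genes from the top, lies right of the dotted minimum of 1 FPKM. SALL4, POU5F1, SOX2 and LIN28B lie left of it.

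The core circuit was barely transcribed in either group. POU5F1 (ENSG00000204531, chr6:31164337-31180731, minus strand) encodes the POU-domain protein Oct-4. It was read 14, 8 and 14 times in NC 1 to 3 and 9, 12 and 11 times in siPSCA 1 to 3, that is 0.288, 0.159 and 0.281 against 0.184, 0.233 and 0.208 FPKM. The groups overlapped, with the lowest value in NC 2. The log2 fold change was -0.04 (SE 0.063, limma adjusted p = 0.723 over the 34391 genes with a read), and the ratio of summed reads was 0.864, with an interval of 0.520 to 1.43 that covers counting error only. Its exons share 248 bases (8.56%) with TCF19 on the opposite strand, which had 954 reads in NC and 1450 in siPSCA, and the sources used here do not state whether counting used strand. Reads of POU5F1 and TCF19 in these bases can therefore not be told apart. Processed copies of the gene also carried reads: POU5F1P3 had 26 in NC and 8 in siPSCA, with all siPSCA libraries lower (adjusted p = 0.252), while POU5F1P4 had 5 and 4 and POU5F1P5 had 3 and 5, so that reads given to POU5F1 and to its copies are uncertain.

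SOX2 (ENSG00000181449, chr3:181711924-181714436, plus strand) is the HMG-box partner of Oct-4. It was read 0, 3 and 1 times in NC and 2, 7 and 11 times in siPSCA, or 0, 0.0686 and 0.0231 against 0.0470, 0.157 and 0.240 FPKM. The siPSCA libraries 2 and 3 were above every NC library, and siPSCA 1 lay within the NC range. The ratio of summed reads was 4.86 (interval 1.63 to 19.6), the log2 fold change on the log2(FPKM + 1) scale was 0.15 (SE 0.069, limma adjusted p = 0.213), and limma-voom on the reads recovered from FPKM gave 2.13 (SE 0.832, adjusted p = 0.0883). The exact permutation test gave p = 0.2, where 3 libraries against 3 cannot go below 0.1. SOX2 therefore did not pass any test, and its highest library held 11 reads. SOX2-OT, the long transcript that spans SOX2, had 11 reads in NC and 3 in siPSCA, and its groups overlapped.

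NANOG (ENSG00000111704, chr12:7787794-7799141, plus strand), the homeobox factor of the circuit, was read in 1 of 6 libraries, once, in siPSCA 1. The FPKM that 3 reads would give was 0.0305 to 0.0331, and all libraries lay under it, so no fold change is given. Of its copies, NANOGP8 was read 4 times in NC and 3 times in siPSCA and NANOGP6 9 and 15 times. Both had more reads than NANOG itself, with overlapping groups. A fall of NANOG transcript could not have been seen from a level of 0 reads in NC.

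The promoter windows of 2 of these silent or nearly silent factors and of KLF4 are shown because the circuit's factors are known to read each other's promoters. Each window holds the first 240 of the 250 bases before the RefSeq start on GRCh38.p14, read 5′ to 3′ on the gene's own strand. Capitals mark the letters ATGCAAA of a POU octamer, ACAAT of a SOX core, GGGCGG of a GC box and CACCC of a CACCC box, each searched on both strands.
NANOG, chr12:7789152-7789391, plus strand: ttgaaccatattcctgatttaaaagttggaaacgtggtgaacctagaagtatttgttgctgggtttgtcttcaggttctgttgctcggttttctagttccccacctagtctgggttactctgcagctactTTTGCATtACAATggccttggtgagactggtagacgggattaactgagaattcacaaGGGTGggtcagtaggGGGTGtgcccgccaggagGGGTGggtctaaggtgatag
SOX2, chr3:181711675-181711914, plus strand: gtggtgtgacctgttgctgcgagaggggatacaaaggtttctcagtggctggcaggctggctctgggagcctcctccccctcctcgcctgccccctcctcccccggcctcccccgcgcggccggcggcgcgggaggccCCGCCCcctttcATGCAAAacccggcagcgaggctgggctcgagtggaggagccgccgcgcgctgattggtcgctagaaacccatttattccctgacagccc
KLF4, chr9:107489780-107490019, minus strand: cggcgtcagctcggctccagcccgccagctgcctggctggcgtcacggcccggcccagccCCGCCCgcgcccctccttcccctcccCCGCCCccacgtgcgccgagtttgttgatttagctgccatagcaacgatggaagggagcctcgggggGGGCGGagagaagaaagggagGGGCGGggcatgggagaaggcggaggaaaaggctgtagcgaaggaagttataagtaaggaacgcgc
The NANOG window held the POU letters with their first letter 120 bases before the start and the SOX letters 112 bases before it, a single base apart, together with 3 CACCC boxes. The SOX2 window held the POU letters 100 bases before its start and 1 GC box, and the KLF4 window held 4 GC boxes. Of all 35116 windows of this length, 3.86% held the POU letters, 24% the SOX core, 41.4% a GC box and 53.4% a CACCC box. A match describes letters only, and windows were at hand for 7 of the 10 factors.

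The remaining factors with few reads were SALL4, LIN28B and MYCN. SALL4 (ENSG00000101115, chr20:51782331-51802520, minus strand), a zinc-finger protein of embryonic stem cells that recruits the NuRD repressor complex, was read 32, 37 and 33 times in NC and 54, 53 and 52 times in siPSCA. This is 0.330, 0.368 and 0.332 against 0.553, 0.517 and 0.494 FPKM. All siPSCA libraries lay above all NC libraries. The ratio of summed reads was 1.52 (interval 1.17 to 1.96). The log2 fold change was 0.18 (SE 0.072, limma p = 0.0489 and adjusted p = 0.171), limma-voom on the recovered reads gave 0.62 (SE 0.239, adjusted p = 0.0848), and the exact permutation test gave its smallest possible p of 0.1. The difference thus did not pass correction over all genes by either method.

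LIN28B (ENSG00000187772, chr6:104936616-105083332, plus strand) encodes the RNA-binding protein that blocks let-7 maturation. It was read 1, 2 and 1 times in NC and 3, 1 and 2 times in siPSCA, at or under 3 reads in every library. Its paralog LIN28A had 6 reads in NC and 14 in siPSCA, with overlapping groups (adjusted p = 0.347). MYCN (ENSG00000134323, chr2:15940564-15947007, plus strand), the MYC paralog that is amplified in neuroblastoma, had 0 reads in all 6 libraries, which allows up to 0.0633 to 0.0686 FPKM for 3 reads. Neither gene can be given a fold change. MYC, a further factor that the study followed as a protein, was well expressed by contrast. It had 44.0, 44.3 and 38.7 FPKM in NC and 58.3, 56.0 and 58.5 in siPSCA. All siPSCA libraries were higher, with a log2 fold change of 0.44 (SE 0.065, limma adjusted p = 0.00327), which was 0.21 after removal of the GC and length trend and still passed (adjusted p at most 0.0422 in any setting). MYCL, the remaining family member, averaged 0.968 and 0.745 FPKM (adjusted p = 0.398).

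**Figure D2:**
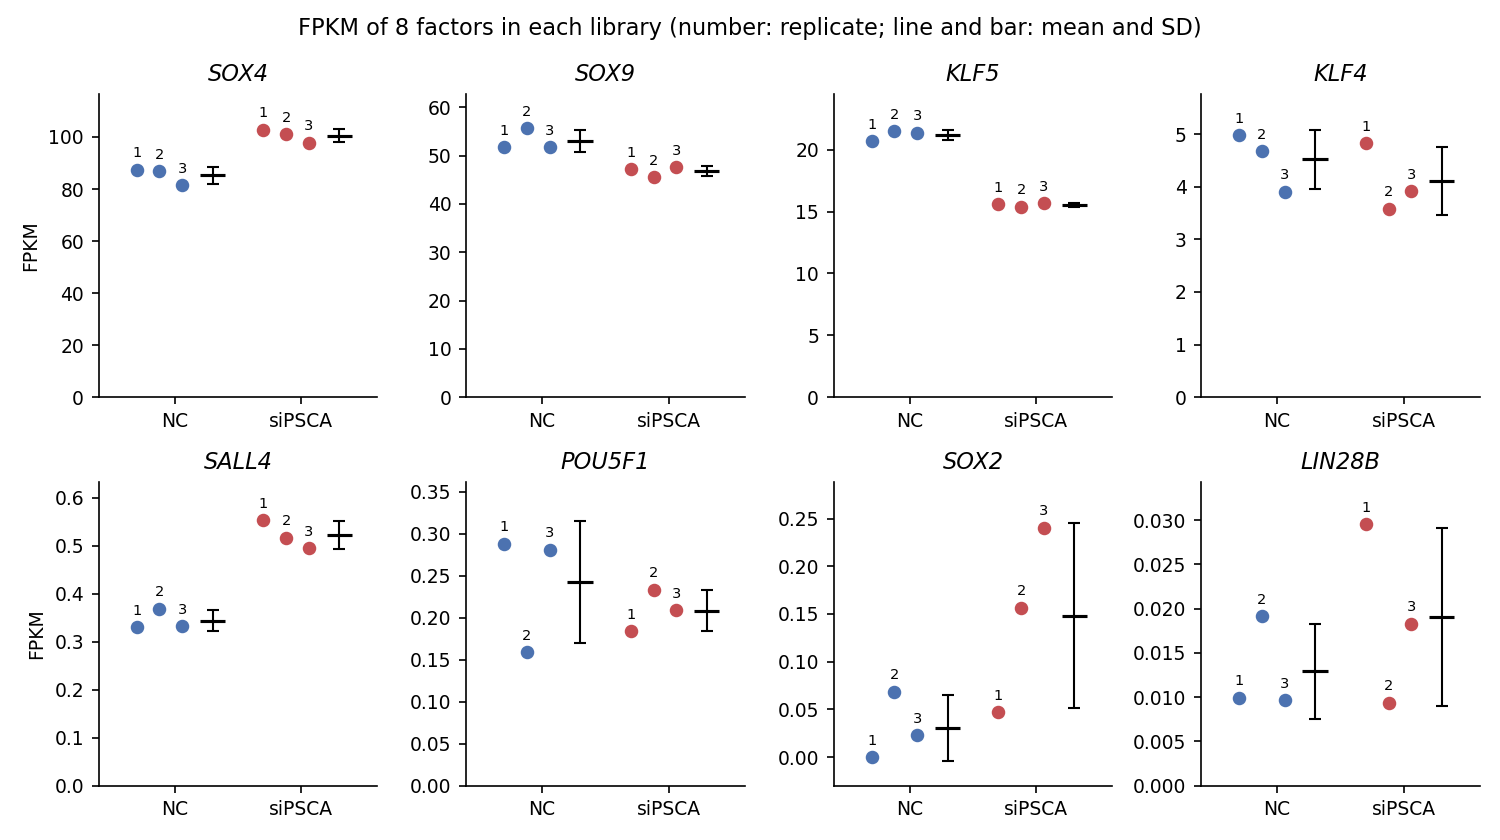
FPKM (y axis, linear, a scale of its own in each panel) of 8 factors in the 3 NC and 3 siPSCA libraries; numbers name the replicate, and the line and bar beside the points give mean and SD. SOX4 and SALL4 are higher and SOX9 and KLF5 lower in every siPSCA library, KLF4 and the other 3 overlap, and the SALL4, POU5F1, SOX2 and LIN28B panels stay below 0.6 FPKM.

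The well-expressed SOX factors moved in opposite directions. SOX4 (ENSG00000124766, chr6:21592768-21598619, plus strand), a SoxC transcription factor with a single exon, had 87.4, 86.8 and 81.4 FPKM in NC and 102.8, 101.1 and 97.7 in siPSCA. All siPSCA libraries were higher, and the lowest NC value was that of NC 3. The mean rose from 85.2 ± 3.33 to 100.5 ± 2.59 FPKM (SD, n = 3), a ratio of 1.18 and a log2 fold change of 0.24 (95% interval 0.117 to 0.356, limma adjusted p = 0.00985). Without NC 3 it was 0.20, after removal of the GC and length trend 0.16, and it passed the test in both cases.

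SOX9 (ENSG00000125398, chr17:72121020-72126420, plus strand), the SoxE factor of the crypt base, had 51.7, 55.6 and 51.8 FPKM in NC and 47.2, 45.6 and 47.6 in siPSCA. Every siPSCA library lay below every NC library, by a small margin. The mean fell from 53.1 ± 2.24 to 46.8 ± 1.07 FPKM, a ratio of 0.882 and a log2 fold change of -0.18 (interval -0.298 to -0.0565, adjusted p = 0.0266). This call was lost when NC 2, siPSCA 1, siPSCA 2 or siPSCA 3 was left out (log2 fold change -0.14, -0.18, -0.16 and -0.19; adjusted p = 0.0885, 0.0743, 0.103 and 0.0618). After removal of the GC and length trend the value was -0.31 and passed. SOX9-AS1, an antisense RNA whose span contains SOX9, had 205 reads in NC and 145 in siPSCA, with all siPSCA libraries lower (adjusted p = 0.326).

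Within a library the ratio of SOX4 to SOX9 needs no scaling between libraries. It was 1.69, 1.56 and 1.57 in NC and 2.18, 2.22 and 2.05 in siPSCA. The siPSCA ratios were all higher (1.61 ± 0.0718 against 2.15 ± 0.0856, exact permutation p = 0.1, the smallest possible). The protein-coding genes with the profile nearest to that of SOX4 over the 6 libraries were FOXC1, a forkhead factor, and PDE12, at Euclidean distances of 0.031 and 0.032 on the log2 scale among 11079 genes, and those nearest to SOX9 were C1orf50 and PAQR8, at 0.047 and 0.055.

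Of the KLF factors, KLF5 had the larger difference. KLF5 (ENSG00000102554, chr13:73054976-73077542, plus strand), which drives proliferation in crypt epithelium, had 20.7, 21.5 and 21.4 FPKM in NC and 15.6, 15.4 and 15.7 in siPSCA. The groups were far apart relative to their spread. The mean fell from 21.2 ± 0.426 to 15.5 ± 0.159 FPKM, a ratio of 0.734 and a log2 fold change of -0.42 (interval -0.529 to -0.317, limma adjusted p = 0.0013). Over all settings it lay between -0.49 and -0.41, with an adjusted p of at most 0.0109. C5orf15 and KATNAL1 had the nearest profiles, at distances of 0.038 and 0.046.

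KLF4 (ENSG00000136826, chr9:107484852-107490482, minus strand), the reprogramming factor that is linked to differentiation in colon epithelium, had 4.98, 4.68 and 3.90 FPKM in NC and 4.83, 3.58 and 3.92 in siPSCA. The groups overlapped, NC 3 being as low as siPSCA 3. The means were 4.52 ± 0.554 and 4.11 ± 0.646 FPKM and the log2 fold change was -0.11 (interval -0.400 to 0.172, adjusted p = 0.449). After removal of the GC and length trend KLF4 passed the test with a log2 fold change of -0.38 (adjusted p = 0.0187), so its call depends on that choice. The ratio of KLF5 to KLF4 was 4.16, 4.60 and 5.48 in NC and 3.23, 4.29 and 4.01 in siPSCA, which overlapped (exact permutation p = 0.2). KRTCAP2 and METTL25 had the nearest profiles, at the larger distances of 0.139 and 0.153.

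**Figure D3:**
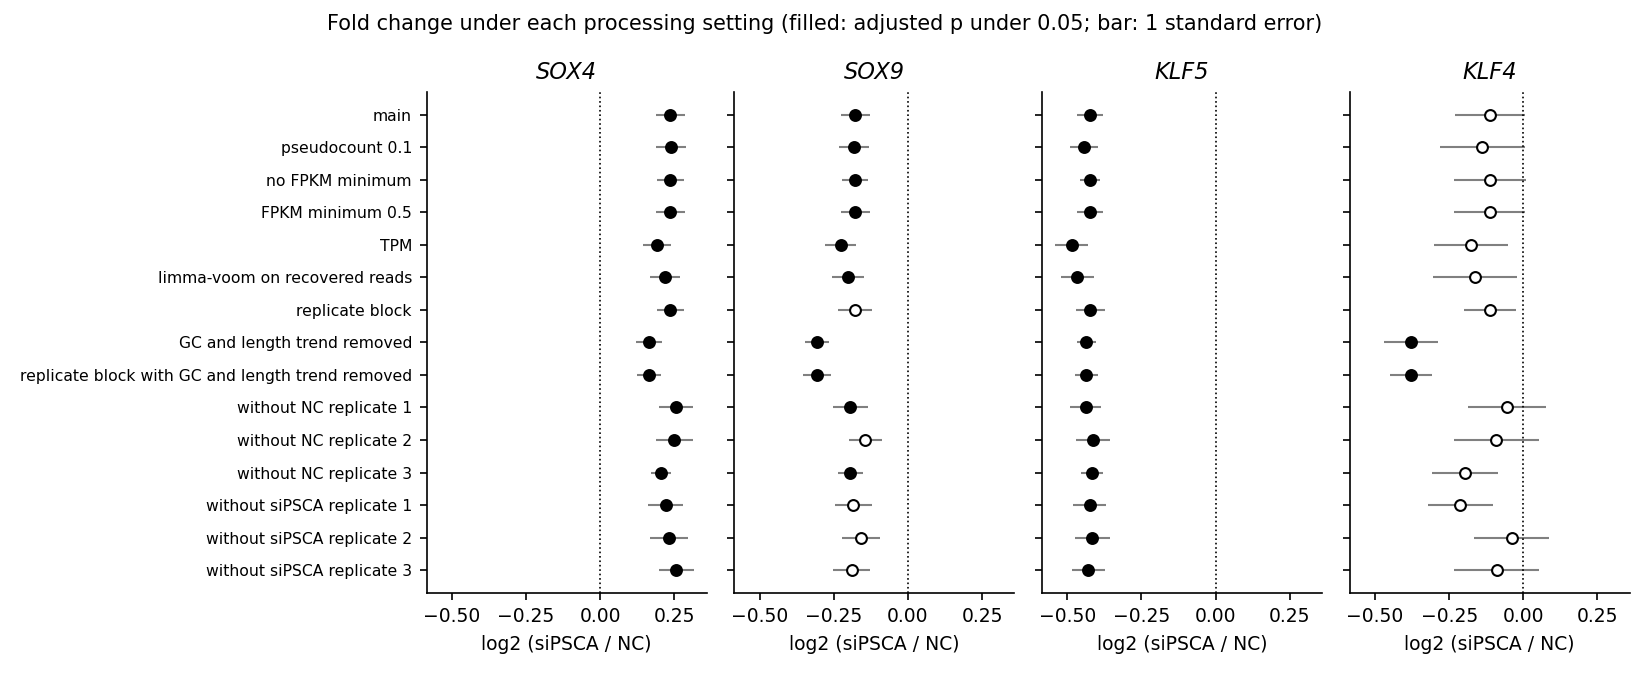
Log2 fold change of siPSCA over NC (x axis) of the 4 factors that passed the FPKM minimum, under each processing setting (y axis); filled points have an adjusted p under 0.05, and bars are 1 standard error. SOX4 lies right and KLF5 left of 0 and filled throughout, SOX9 opens when single libraries are left out or replicates are blocked, and KLF4 fills at -0.38 when the GC and length trend is removed.

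The counts by family and list that follow stand against 50.7% of all tested genes called (26.6% higher and 24.2% lower), or 39.6% (21.2% higher and 18.4% lower) with the GC and length trend removed. Of 17 further SOX genes 5 were tested, 3 rose and none fell by limma. SOX12, the other expressed SoxC factor, rose from 12.2 ± 2.60 to 20.0 ± 1.24 FPKM, and SOX15 and SOX18 rose from 1.06 to 2.44 and from 1.13 to 2.47 FPKM. After removal of the GC and length trend none of the 3 passed (log2 fold changes 0.16, 0.27 and -0.10), and 0 of the 5 rose and 2 fell. The call of SOX18 was also lost without NC 2 or any single siPSCA library, and that of SOX15 without NC 2, siPSCA 1 or siPSCA 2 (adjusted p up to 0.109 and 0.0762), and without NC 3 SOX18 was at 0.49 in place of 0.75. Of 24 KLF and SP genes 16 were tested, 5 rose and 7 fell, with a median log2 fold change of 0.012. KLF16 and KLF2, the latter a factor of quiescence and naive pluripotency, rose from 7.30 ± 2.96 to 17.6 ± 0.671 FPKM and from 10.6 ± 3.21 to 23.5 ± 1.66 FPKM. KLF10, a TGF-beta-inducible repressor, fell from 52.8 ± 2.82 to 32.8 ± 0.820 FPKM (log2 fold change -0.67, adjusted p = 0.00075), and KLF12 and KLF7 fell by 0.70 and 0.54 on the log2 scale. With the trend removed these 5 genes still passed, KLF16 at 0.41, KLF2 at 0.46, KLF10 at -0.69, KLF12 at -0.32 and KLF7 at -0.34. SP6 rose by 0.66, and was at 0.19 without passing the test after the trend was removed. Of 21 POU, NANOG, SALL, LIN28 and MYC relatives 3 were tested, of which MYC rose and POU2F1, the widely expressed octamer-binding factor Oct-1, fell by 0.39, a call that was lost after removal of the trend (-0.046, adjusted p = 0.570).

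The wider pluripotency network was mostly low as well. Of 38 listed genes 10 had no read in any library and 15 were tested, of which 5 rose, 4 fell and 6 did not pass. NACC1, a BTB-domain partner of NANOG, rose from 28.0 ± 8.31 to 58.5 ± 0.751 FPKM and TBX3 rose by 0.37 on the log2 scale. TCF3, which was listed by symbol and encodes the E2A proteins, rose by 0.63. The 5 rises include TCF3, whose place in this network was not tested. RIF1, a regulator of replication timing, fell from 7.27 ± 0.0905 to 3.58 ± 0.655 FPKM. LIFR and IL6ST, which form the receptor for leukaemia inhibitory factor, fell from 4.22 to 2.35 and from 8.13 to 5.45 FPKM (adjusted p = 0.00187 and 0.00228). All 6 still passed with the GC and length trend removed, at smaller values: 0.49 for NACC1, 0.18 for TCF3, 0.25 for TBX3, -0.41 for RIF1, -0.24 for LIFR and -0.13 for IL6ST. The NC 3 value of NACC1, 18.5 FPKM against 33.9 and 31.7 in NC 1 and NC 2, was the one furthest from its group, and its log2 fold change was 1.08 with and 0.82 without that library.

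The let-7 list holds microRNA processing genes as well as let-7 targets, so not all of it lies downstream of LIN28B. It was tested for 22 of 24 genes in the table, of which 6 rose and 9 fell (median log2 fold change -0.024). TUT7 and TUT4, the uridylyl transferases that LIN28 proteins recruit to let-7 precursors, fell from 12.1 ± 1.28 to 7.53 ± 0.657 and from 7.39 ± 0.336 to 4.57 ± 0.483 FPKM. After removal of the trend TUT7 still passed (-0.34) and TUT4 did not (-0.20, adjusted p = 0.0543). Among let-7 targets CDC25A, a cell cycle phosphatase, rose from 6.44 ± 0.391 to 11.6 ± 0.208 FPKM (log2 fold change 0.76, adjusted p = 0.00063), CDC34 and HRAS rose by 0.81 and 0.55 and IGF2BP3 fell by 0.48. With the trend removed CDC25A was at 0.62, IGF2BP3 at -0.17, CDC34 at 0.12 without passing and HRAS at -0.12. HMGA2, a let-7 target named here after its value was seen, had 23.5 and 24.0 FPKM (adjusted p = 0.568), and passed with a log2 fold change of 0.44 once the trend was removed (adjusted p = 0.00139).

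Of the 14 NuRD subunits, the complex that SALL4 recruits, all were tested, 7 rose and 4 fell. The methyl-CpG-binding domain proteins and the GATAD2 subunits divided. MBD3 and GATAD2A rose from 4.48 to 8.56 and from 15.5 to 26.0 FPKM, whereas MBD2 and GATAD2B fell from 14.3 to 9.66 and from 11.7 to 9.63 FPKM. CDK2AP1 rose by 0.90 and RBBP7, a histone-binding subunit, fell by 0.39. Without NC 3 MBD3 was at 0.62 in place of 0.84 and MBD2 at -0.39 in place of -0.51. The call of MBD3 was lost without siPSCA 1 or siPSCA 2 (adjusted p = 0.0569 and 0.0524), as was that of GATAD2B (0.0504 and 0.0527), and that of MBD2 without siPSCA 2 (0.0513). After removal of the GC and length trend 8 rose and 4 fell, with MBD3 at 0.35, GATAD2A at 0.51 in place of 0.71 and RBBP7 at -0.14. In the MYC and MAX network 5 of 10 rose and 3 fell, and 2 rose and 2 fell once the trend was removed. MXI1, a MAX partner that represses MYC targets, fell from 25.0 ± 0.669 to 10.2 ± 0.621 FPKM (log2 fold change -1.21, adjusted p = 0.000168; -1.09 with the trend removed). MXD1 fell by 0.75 and MXD4, of the same group of repressors, rose by 1.01. With the trend removed MXD1 was at -0.55 and MXD4 at 0.72, and both still passed. MLXIPL and MLXIP, partners of the MAX-like protein MLX, rose by 0.61 and 0.39, and MGA fell by 0.39. With the trend removed MLXIP was at 0.16, MLXIPL at 0.02 and MGA at -0.04, and the last 2 did not pass. MLXIPL also lost its call without any single siPSCA library (adjusted p = 0.0838 to 0.106), and was at 0.38 without NC 3.

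Regulators of the stability or activity of the factor proteins were tested for 17 of 19 genes in the table, of which 5 rose and 6 fell. BAP1, a deubiquitinase, rose from 11.7 ± 1.05 to 18.7 ± 1.13 FPKM and SKP2, an F-box protein, from 16.8 ± 0.454 to 23.7 ± 0.745 FPKM. USP28, which stabilises MYC, ITCH and CUL4B fell by 0.58, 0.57 and 0.47, the last of these by 0.14 without passing once the trend was removed. BAP1 and ITCH were then at 0.19 and -0.25 and still passed, as did USP28 at -0.42 and SKP2 at 0.67 in place of 0.47. WWP1 and FBXW7, ubiquitin ligases known to act on KLF5 and named here after their values were seen, went from 17.8 to 13.3 and from 3.58 to 2.88 FPKM (log2 fold changes -0.40 and -0.24, adjusted p = 0.0124 and 0.0246). With the trend removed neither passed (-0.08 and -0.10), and FBXW7 also lost its call without NC 2 or any single siPSCA library (adjusted p = 0.0563 to 0.0895). Of 16 genes known as barriers to reprogramming all were tested, 12 rose and 2 fell. This was 87.5% called against 50.7% of all tested genes, with a median log2 fold change of 0.379 against 0.009. This list, like the others, was written with earlier results of these data known, so its share is not an independent result. CDKN1A, the cyclin-dependent kinase inhibitor p21, rose from 99.5 ± 18.6 to 177.0 ± 6.90 FPKM, SUV39H1, a histone H3 lysine methyltransferase, from 2.27 ± 0.425 to 4.62 ± 0.403 FPKM and CHAF1A, of the CAF-1 chromatin assembly complex, from 11.5 ± 0.592 to 18.4 ± 0.274 FPKM. RB1 and SUV39H2 fell by 0.33 and 0.29. Without NC 3 CDKN1A was at 0.68 in place of 0.84. After removal of the GC and length trend 6 of the 16 rose and 0 fell, where 21.2% of all tested genes rose and 18.4% fell, with a median of 0.131. CDKN1A and SUV39H1 still passed there (0.45 and 0.42), CHAF1A did not (0.28), RB1 was at 0.0015 and SUV39H2 at -0.10, neither of which passed. The call of SUV39H2 was also lost without siPSCA 2 (adjusted p = 0.0581). Over all lists of relatives and partners 101 of the 163 genes in the table were tested, 44 rose and 30 fell (73.3% called against 50.7% of all tested genes), and 30 rose and 25 fell with the trend removed.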

How the data were processed

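RNA of 6 HCT116SC libraries was measured, and groups and replicate numbers follow the sample labels. Per the labels, total RNA was made into libraries with an NEBNext Ultra kit; the aligner, counter and strand setting are not given in the sources used here. The authors deposited FPKM values per gene on GRCh38, and all 58735 genes had the identifiers, starts and ends of GENCODE release 29. FPKM multiplied by gene length gave whole reads for 100% of values, within 0.01 of a read, and these recovered reads were used for read ratios and limma-voom. Intervals and the limit of 3 reads cover counting error only.

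Groups were compared with limma 3.58.1 in R 4.3.3 (lmFit and eBayes with trend) on log2(FPKM + 1), with no covariate, for the 13796 genes whose FPKM averaged 1 or more, with Benjamini-Hochberg adjustment over all of them. Factors under that minimum and PSCA were taken from the same fit over the 34391 genes with a read. A fold change on this scale understates the change of low genes. Nothing in the labels says that replicates were separate cultures, so p-values measure the spread between these libraries. Exact permutation tests were 2-sided.

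Alternatives were another pseudocount (0.1) and minimum, TPM, limma-voom with TMM factors on recovered reads, a replicate block, removal of the trend with GC and length (splines per library, with GC known for 99.97% of genes), and each library left out. Scripts were tested on simulated data. Promoter letters came from RefSeq on GRCh38.p14. The 10 factors and the lists of relatives, partners and markers were chosen with earlier results of these data known. Named from each list were the 3 largest rises and 3 largest falls past the adjusted threshold; exceptions are said in the text, and a gene that the rule names is not reported here.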

Additional observations from a re-analysis of the deposited data

How the results depend on the processing

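Of the factors, SOX4 and KLF5 kept their direction and an adjusted p under 0.05 in every alternative fit. SOX9 kept its direction in all of them and lost its call with the replicate block (log2 fold change -0.18, adjusted p = 0.0621) and when single libraries were left out (range -0.19 to -0.14); fewer libraries were then fitted. KLF4 passed the test with the GC and length trend removed (-0.38, adjusted p = 0.0187) and with the replicate block and the trend removed together (-0.38, adjusted p = 0.0221); the cause was not tested. The trend was not removed for POU5F1, SOX2, SALL4 and PSCA, since it was estimated on genes above the minimum. SALL4 and SOX2 passed in no setting. PSCA was at 0.0137 without NC 3. The planned edgeR and DESeq2 fits are not reported; limma-voom was used on the recovered reads. With the trend removed, with or without the replicate block, SOX18 was at -0.10, HRAS at -0.12, KRT19 at -0.2725, KRT8 at -0.0221 and RB1 at 0.0015, and with TPM HMGA2 was at -0.0154, each against its sign in the main analysis.

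Under p under 0.05 with a log2 fold change beyond 0.5, 0 of the factors, 3434 of all genes and 35 of the listed relatives passed, against 3, 7001 and 74. With the replicate block and the trend removed the counts were 4644 genes and 45 relatives, and TBX3, LIFR, IL6ST, IGF2BP3, RBBP7, MLXIP and BAP1 no longer passed. Leaving out single libraries gave 4627 (without siPSCA 1) to 7425 genes. Whether replicate numbers pair the libraries could not be settled from 3 libraries per group. Same-numbered deviations from the group means correlated at 0.0955, 0.0132 and 0.134, and unlike-numbered ones at -0.131 to 0.0417. NC 1 and NC 3 correlated best with their own number, and NC 2 with siPSCA 1. The block alone gave 6725 genes. Depth limits what can be said of NANOG, LIN28B and MYCN, which were at or under 3 reads in every library.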
